A study of Homo sapiens with 6 samples.

Results

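Narrow shared origin sites are the short stretches of the genome that carried a nascent-strand peak in every sample of the study and that stayed short when the peaks of all samples were laid together. The peaks of 4 lists on chromosomes 1 to 22 and X were pooled, and peaks that touched or overlapped were merged into regions. The sites were selected on measured values, namely a peak from all 4 lists and a merged width under 300 bp. This gave 7493 narrow sites among 57116 regions found in all 4 lists, or 13.1%, and among 534833 merged regions in all, or 1.40%. The other 49623 regions found in all 4 lists, called wider regions here, are the comparison set. Presence in 4 lists and a small width are therefore how the sites were defined and not results about them.

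Replication origins are the places where the 2 strands of DNA are parted and copying begins. The origin recognition complex (ORC) binds chromatin and loads the replicative helicase there, and in human cells many more sites are prepared than are used in any one cycle. A newly started copy is a short DNA strand with an RNA primer at its 5′ end, which protects it from an exonuclease that digests other DNA. Nascent-strand sequencing (NS-seq) reads these short strands after size fractionation and exonuclease digestion, so a peak marks DNA near a start site averaged over many cells.

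The samples were U2OS cells, a human osteosarcoma line. The siORCA group was transfected with siORCA, an siRNA against ORCA, the product of LRWD1, which binds ORC and helps to hold it on chromatin (2 samples). The control group was transfected with the control siRNA gl3 (2 samples). The labels used here give no time after transfection. NS-seq measures DNA, so ORCA itself was not measured. The 2 genomic DNA samples, 1 per transfection, were not analysed here. Whether replicates came from separate cultures is not stated in the labels, and p-values therefore reflect the spread between these samples alone, possibly a technical one.

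The deposited lists held 330265 peaks in siORCA 1 and 198518 in siORCA 2, against 181215 in control 1 and 235865 in control 2. They hold no read counts, so depth is unknown, and the siORCA 1 list stands apart by its length. Narrow sites took up 2.27% of the peaks on chromosomes 1 to 22 and X in siORCA 1 and 3.78% in siORCA 2, against 4.14% in control 1 and 3.18% in control 2. Each narrow site held 1 peak of every list, so this share only mirrors the number of peaks in the list. Most short peaks lie elsewhere: of all peaks under 300 bp, 3.07% in siORCA 1 and 5.85% in siORCA 2 fell in a narrow site, against 6.49% in control 1 and 4.59% in control 2. Here too the number in narrow sites is the same in every list, so the order of the samples mirrors their numbers of short peaks. Positions are on T2T-CHM13, the build that the submitters' processing notes name, and no sequence or gene annotation of that build was used here, so the sites carry no gene names.

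The narrow sites were from 107 to 299 bp wide, with a median of 239 bp and quartiles of 205 and 269 bp. The wider regions had a median of 746 bp and reached 10396 bp. The limit falls in the middle of a continuous range: 555 sites were 290 to 299 bp wide and 584 regions were 300 to 309 bp wide. All 7493 narrow sites held exactly 1 peak of each list, whereas 39090 of the wider regions (78.8%) did. A merged width under 300 bp leaves little room for a second peak of the same list, so this contrast is largely fixed by the selection. The narrow sites together spanned 1.757 Mb, which is 3.79% of the length of all regions found in the 4 lists.

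At a narrow site the median peak length was 173 bp in siORCA 1 and 178 bp in siORCA 2, against 163 bp in control 1 and 154 bp in control 2. The siORCA medians lay above the control medians. A sample's peak filled a median of 78.4% of the site in siORCA 1 and 80.4% in siORCA 2, against 74.1% in control 1 and 70.2% in control 2. Some of these peaks were close to the shortest that the caller reported, which was 82 and 103 bp in the siORCA lists and 106 and 92 bp in the control lists. A peak within 20 bp of that minimum was found at 6.55% of the sites in siORCA 1 and 9.97% in siORCA 2, against 19.0% in control 1 and 15.5% in control 2.

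**Figure D1:**
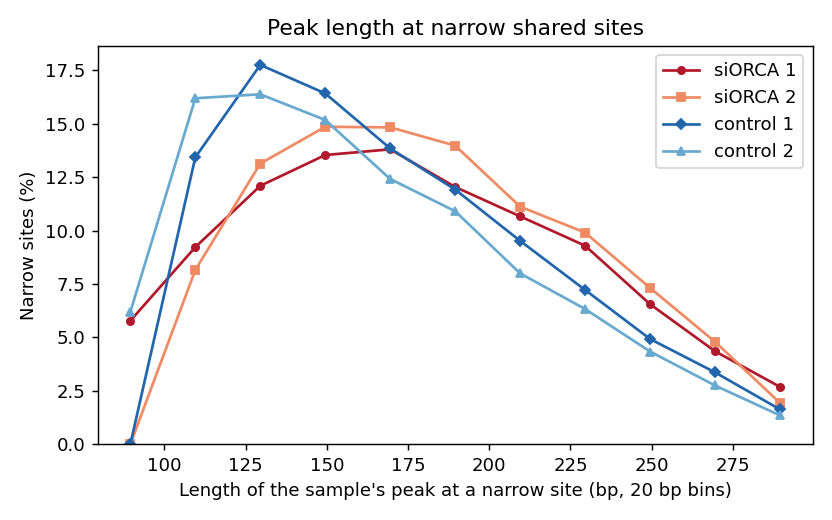
Share of the narrow sites (y axis, %) by the length of the sample's peak there (x axis, bp, in bins of 20 bp), with 1 line per sample. The control lines peak at shorter lengths than the siORCA lines, whose medians were 173 and 178 bp against 163 and 154 bp in control.

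The 4 samples placed their peaks on nearly the same bases at the narrow sites. The stretch common to all 4 peaks had a median of 109 bp (quartiles 88 and 133 bp), or 48.6% of the site, and was absent at 80 sites (1.07%). In wider regions it had a median of 155 bp, or 24.7% of the region, and was absent at 4666 (9.40%). The SD of the 4 peak midpoints had a median of 19.6 bp at narrow sites and 97.3 bp in wider regions. A merged width under 300 bp limits how far the midpoints can lie apart, so this closeness is in part fixed by the selection.

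Peak strength was moderately alike between samples. Across the narrow sites, Spearman's correlation of the authors' fold enrichment ranged from 0.288 for siORCA 1 with control 2 to 0.499 for siORCA 1 with siORCA 2. The pair siORCA 2 with control 1 came next, at 0.493, so the order of the pairs did not follow the groups alone. In wider regions the correlation of fold enrichment was higher in every pair, from 0.355 to 0.594. Correlations of peak length at narrow sites were lower, from 0.137 to 0.288, and those in wider regions were 0.315 to 0.488. The width limit caps peak length at narrow sites, which can lower the correlation there, and its part was not tested. The correlations are descriptions across 7493 narrow sites, or across the wider regions, that share 4 libraries, with depth unknown.

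The authors' fold enrichment over background at the narrow sites had medians of 6.58 in siORCA 1 and 5.64 in siORCA 2, and of 4.81 in control 1 and 4.97 in control 2. Fold values of different lists were not compared, because their scale can move with depth. Ranked within its own list, the median narrow site stood at percentile 78.2 in siORCA 1, 81.2 in siORCA 2, 79.0 in control 1 and 78.7 in control 2. The strongest peak of the median wider region stood at percentile 79.3 in siORCA 1, 76.2 in siORCA 2, 73.5 in control 1 and 74.9 in control 2. Both sets were selected for a peak in all 4 lists, so high percentiles are in part fixed by the selection. Width, which can go with strength, was used by the rule as well. Narrow sites ranked higher in 3 of 4 samples, with siORCA 1 the exception, by 3.28 ± 3.03 percentile points (SD, n = 4). An exact two-sided sign-flip permutation test over samples gave p = 0.25, where 0.13 is the smallest it allows. With the mean over a wider region's peaks in place of its strongest, narrow sites ranked higher in 4 of 4 samples, siORCA 1 included, by 5.68 points (exact sign-flip p = 0.13). In the stricter list, with a −log10 q of at least 3, the difference was 1.03 points, and without control 1, which leaves 3 lists and other members, it was -0.178.

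Width and strength were not related in 1 direction. The median percentile in control 1 was 83.3 in sites 100 to 149 bp wide, 71.2 in regions 500 to 699 bp wide and 87.5 in regions of 3000 bp and over. In siORCA 1 the narrowest sites had the lowest median of all its bins, at 70.6, and regions of 3000 bp and over had 91.4. The narrowest bin holds 186 sites. Just inside the limit, in sites of 250 to 299 bp, the medians were 78.3 in siORCA 1 and 81.4 in siORCA 2, and 78.0 in control 1 and 77.4 in control 2. Just outside, in regions of 300 to 349 bp, they were 79.8 in siORCA 1 and 79.9 in siORCA 2, and 77.5 in control 1 and 76.4 in control 2. No step is seen at the limit.

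**Figure D2:**
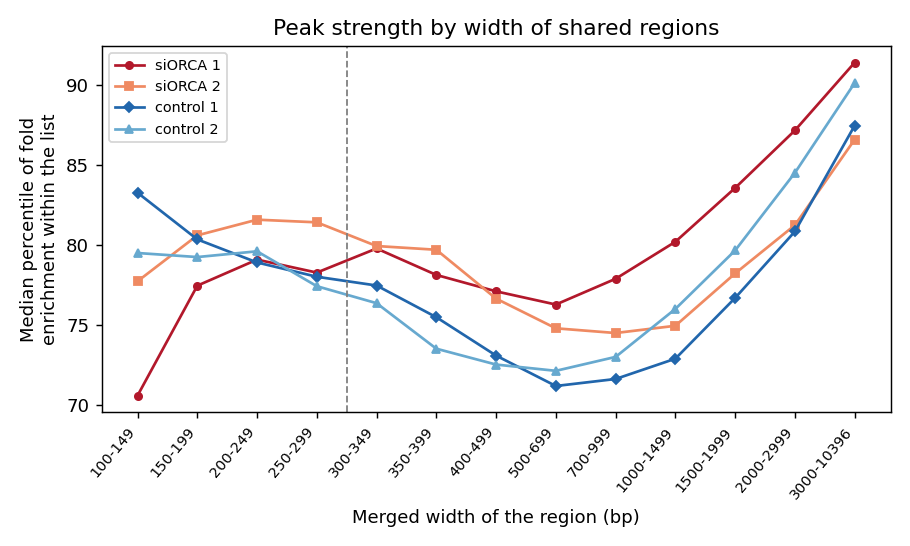
Median percentile of fold enrichment within the sample's own list (y axis) by merged width of the region found in all 4 lists (x axis, bp), with 1 line per sample and a dashed line at the 300 bp limit. In control 1 the median was 83.3 in the narrowest bin, 71.2 at 500 to 699 bp and 87.5 in the widest bin, while siORCA 1 began at 70.6.

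In single lists, narrow sites were in the strongest 5% somewhat more often than wider regions. The share of narrow sites there was 18.4% in siORCA 1 and 16.8% in siORCA 2, and 15.5% in control 1 and 17.6% in control 2. The share of wider regions was 16.5% in siORCA 1 and 14.8% in siORCA 2, and 13.2% in control 1 and 14.8% in control 2. In the strongest 1%, narrow sites had the higher share in siORCA 1 (5.03% against 3.83% of wider regions) and control 2 (3.75% against 3.62%). They had the lower share in siORCA 2 (2.62% against 3.47%) and control 1 (2.67% against 3.13%).

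Taken over all 4 lists at once, the order was the other way round. In the strongest 1% of every list there were 33 narrow sites, or 0.440% (Wilson 95% interval 0.314 to 0.618%), and 360 wider regions, or 0.725% (0.655 to 0.804%). In the strongest 5% of every list there were 196 narrow sites, or 2.62% (2.28 to 3.00%), and 1832 wider regions, or 3.69% (3.53 to 3.86%). The intervals do not overlap in either case, but they cover counting error only. A region is scored by its strongest peak in each list, here and in the single lists above. All narrow sites but only 78.8% of wider regions held exactly 1 peak per list. The score can therefore place wider regions higher at both ends, and its part was not tested. At the strongest 10% the shares were 7.43% of narrow sites and 7.63% of wider regions. At the other end, 116 narrow sites (1.55%) and 1150 wider regions (2.32%) lay below the median of every list.

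The narrow site that ranked highest over the 4 lists was 129 bp wide, at chr15:72763860-72763988. Its fold enrichment was 94.2 in siORCA 1 and 111 in siORCA 2, and 148 in control 1 and 154 in control 2. It was the strongest peak of the whole control 2 list and ranked 6 in control 1, 5 in siORCA 2 and 107 in siORCA 1.

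The next 4 by the same ranking were 116 to 267 bp wide. The site at chr17:79009513-79009765 (253 bp) had a fold enrichment of 67.2 in siORCA 1 and 49.998 in siORCA 2, and 64.4 in control 1 and 29.0 in control 2. The site at chr13:98673929-98674195 (267 bp) had 44.9 in siORCA 1 and 48.7 in siORCA 2, and 59.6 in control 1 and 50.2 in control 2. The site at chr17:9259491-9259650 (160 bp) had 54.1 in siORCA 1 and 29.3 in siORCA 2, and 46.4 in control 1 and 53.8 in control 2. None of the 3 exceeded the chr15 site in any list. The site at chr2:121116091-121116206 (116 bp) had 37.5 in siORCA 1 and 44.6 in siORCA 2, and 66.2 in control 1 and 66.7 in control 2. The peaks of all 4 lists at that site were 114 to 116 bp long, so nearly the whole width was shared.

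The 3 narrowest sites spanned a wide range of strength. The narrowest, 107 bp at chr8:2936701-2936807, had a fold enrichment of 30.0 in siORCA 1 and 54.6 in siORCA 2, and 78.8 in control 1 and 76.8 in control 2. The next, 110 bp at chr16:3876609-3876718, had 20.7 in siORCA 1 and 24.0 in siORCA 2, and 24.3 in control 1 and 30.3 in control 2. The third, 112 bp at chr12:6530736-6530847, had 4.48 in siORCA 1 and 4.55 in siORCA 2, and 3.51 in control 1 and 4.59 in control 2. A site can thus be at the narrow end of the range and near the top of a list, or near its middle: the mean percentile of the chr12 site over the 4 lists was 53.7, against 99.8 for the chr8 site.

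Narrow sites lay farther from other origins than wider regions did. The nearest other region found in all 4 lists, of any width, was a median of 9.19 kb away from a narrow site (quartiles 2.94 and 33.2 kb) and 4.18 kb away from a wider region (quartiles 1.41 and 12.6 kb). Such a neighbour was within 10 kb of 3905 narrow sites, or 52.1% (51.0 to 53.2%), and of 35061 wider regions, or 70.7% (70.3 to 71.1%). The share was lower for narrow sites on 23 of 23 chromosomes. Merging joins peaks that touch, so a region stays narrow only where no further peak adjoins it, which was not separated from spacing beyond that. The difference was not limited to near neighbours: 89.7% of narrow sites and 96.3% of wider regions had a neighbour within 100 kb.

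Isolation was greater towards the narrow end. In sites of 100 to 149 bp, 41.9% had a neighbour within 10 kb and the median distance was 14.4 kb. In regions of 3000 bp and over, 88.7% had one and the median distance was 1.92 kb. Across the limit, the share was 54.3% at 250 to 299 bp and 55.4% at 300 to 349 bp. The change with width was therefore gradual.

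**Figure D3:**
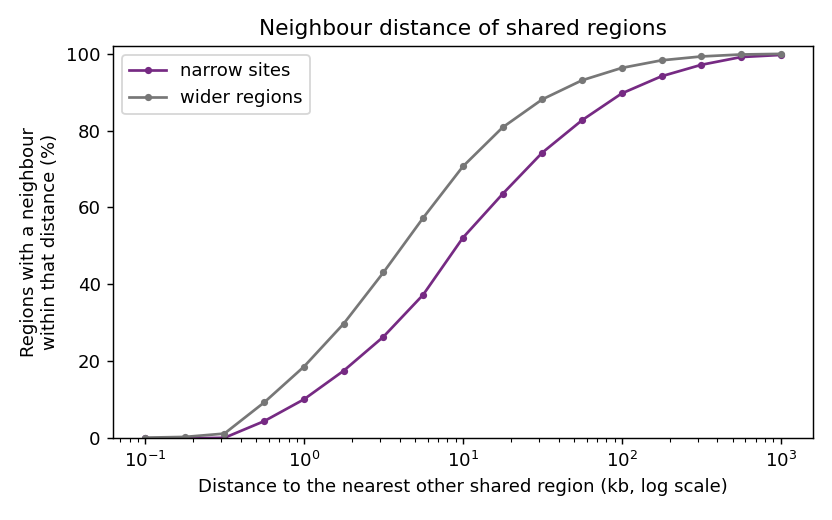
Cumulative share of narrow sites and of wider regions (y axis, %) that have another region found in all 4 lists within a given distance (x axis, kb, log scale). At 10 kb the narrow line is at 52.1% and the wider line at 70.7%.

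Narrow sites were far from each other as well, with a median of 161 kb between consecutive ones (quartiles 56.0 and 414 kb) and 667 gaps over 1 Mb. Consecutive wider regions, which are more numerous, were a median of 10.2 kb apart. The regions next to a narrow site on either side were narrow themselves in 17.7% of cases (2658 of 14986, 17.1 to 18.4%). For wider regions this was 12.4% (12328 of 99200, 12.2 to 12.6%). Narrow sites were thus next to another narrow site more often than wider regions were, although the distances between them were long.

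Another narrow site lay within 10 kb of 10.8% of narrow sites, and a narrow site lay within 10 kb of 13.3% of wider regions, so few regions of either kind had one near. Grouped by gaps under 10 kb, 6687 narrow sites stood singly. There were 342 pairs, 35 runs of 3, 3 runs of 4 and 1 run of 5. The run of 5 lay at chr4:193474213-193500171, with 2 wider regions between its members. The runs of 4 lay at chr1:10216531-10227919, chr17:20453954-20471291 and chr7:56578882-56584246.

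The most isolated sites were on the X chromosome and on chromosome 13. The site at chrX:92115751-92115929 was 2563 kb from any other region found in all 4 lists, with a fold enrichment of 6.51 in siORCA 1 and 5.18 in siORCA 2, and 7.22 in control 1 and 8.59 in control 2. The site at chrX:110627392-110627655 was 2387 kb away, with 14.1 in siORCA 1 and 4.38 in siORCA 2, and 3.94 in control 1 and 5.71 in control 2. The site at chr13:70529049-70529201 was 2353 kb away, with 6.05 in siORCA 1 and 6.50 in siORCA 2, and 4.22 in control 1 and 7.14 in control 2. None of the 3 came near the fold enrichment of the strongest sites above.

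Along the genome, narrow sites followed the density of origins but less steeply than wider regions. Of 3069 windows of 1 Mb, 895 (29.2%) held no narrow site and 521 (17.0%) held no wider region. The densest 307 windows held 35.9% of the narrow sites, ranked by narrow sites, and 47.4% of the wider regions, ranked by wider regions. The number of narrow sites per window grew from 0.967 on average where 1 to 4 wider regions lay, to 8.02 where 80 to 207 did. Their share among the regions found in all 4 lists went the other way, with 30.8% at 1 to 4 wider regions, 17.4% at 10 to 19 and 7.22% at 80 to 207. The wider count groups the windows and also enters the share, so this fall is in part built in. A further 151 windows held narrow sites and no wider region, with 209 sites in all.

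**Figure D4:**
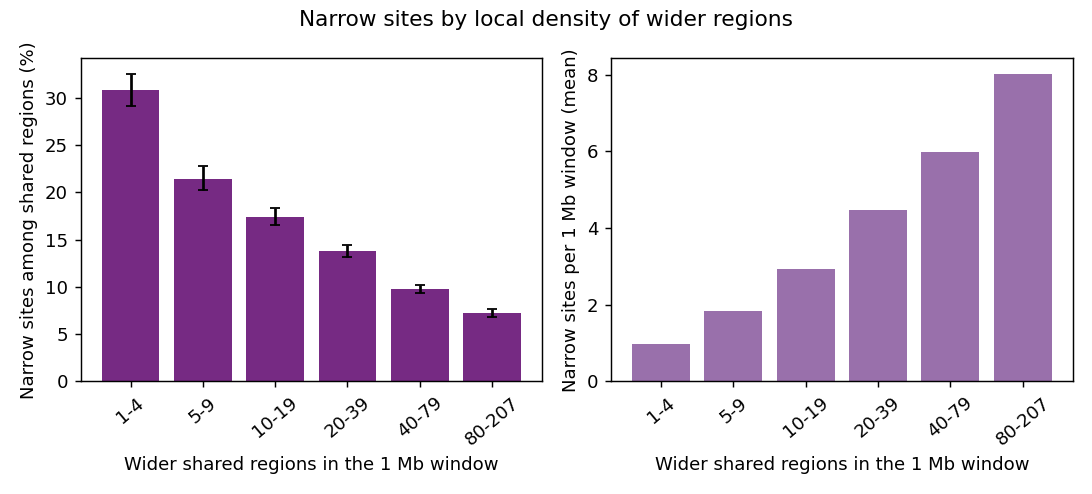
Windows of 1 Mb grouped by the number of wider regions they hold (x axes): the left panel gives narrow sites as a share of regions found in all 4 lists (%, with Wilson 95% intervals that cover counting error only), and the right panel the mean number of narrow sites per window. The share was 30.8% in the sparsest group and 7.22% in the densest, in part by construction since the wider count enters the share, while the mean number was 0.967 and 8.02.

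The windows with most narrow sites differed in how many wider regions they held. The 2 windows with 18 sites each were on chromosome 7, at 4 to 5 Mb with 60 wider regions and at 2 to 3 Mb with 150. The next, on chromosome 2 at 121 to 122 Mb, held 17 narrow sites and 78 wider regions, and the strong chr2 site described above lies in it. Next was chromosome 13 at 6 to 7 Mb, with 16 narrow sites beside 24 wider regions. The fifth place was a tie of windows with 15 narrow sites: chromosome 13 at 8 to 9 Mb with 23 wider regions, chromosome 15 at 67 to 68 Mb with 65, chromosome 10 at 72 to 73 Mb with 119, and chromosome 7 at 1 to 2 Mb with 193. Both chromosome 13 windows lie inside the evenly spaced stretch described below, whose sites may not be independent.

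Between chromosomes, narrow sites were densest on chromosome 22, with 5.09 per Mb, and chromosome 17, with 4.97 per Mb. They were sparsest on the X chromosome, with 0.421 per Mb, and on chromosome 4, with 1.15 per Mb. As a share of the regions found in all 4 lists, the order was different. Chromosome 13 was highest, at 22.9% (19.9 to 26.2%), followed by chromosome 4 at 19.4%. Chromosome 19 was lowest, at 7.67% (6.80 to 8.63%), followed by chromosome 22 at 9.28%. The highest and lowest autosomes differed 4.43 times in narrow sites per Mb and 10.8 times in wider regions per Mb. Across 23 chromosomes, wider regions per Mb correlated with narrow sites per Mb (Spearman's rho 0.948, Pearson's r 0.929) and inversely with the narrow share (rho -0.815, r -0.806). The chromosomes share the 4 libraries, and the wider count enters the share, so these are descriptions.

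**Figure D5:**
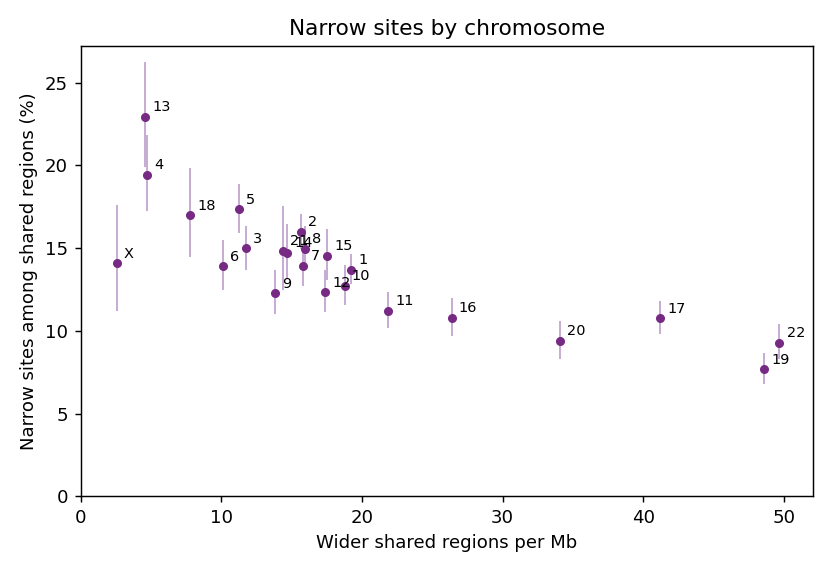
Narrow sites as a share of regions found in all 4 lists (y axis, %) against wider regions per Mb (x axis), 1 point per chromosome, with Wilson 95% intervals that cover counting error only. Chromosome 13 is highest at 22.9% and chromosome 19 lowest at 7.67%.

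Part of the chromosome 13 excess came from 1 evenly spaced stretch, a pattern sought after the data had been seen. Between 5879873 and 9074051 on chromosome 13, narrow sites recurred at a step of 46.968 kb: 32 pairs of sites were that far apart within 100 bp, and 43 sites were in such a pair. The stretch held 50 narrow sites and 73 wider regions over 3.19 Mb. Of its narrow sites, 46 lay within 500 bp of 1 common phase. The nearest wider region ended a median of 6.24 kb (quartiles 6.22 and 6.25 kb) before the site, so a pair of regions recurred as a unit. These 50 sites were 32.3% of the 155 narrow sites of chromosome 13, and without the stretch the narrow share of that chromosome was 19.0%.

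A shorter stretch of the same kind lay on chromosome 21, between 3973875 and 5172491. Its step was 44.39 kb, with 10 pairs, 16 narrow sites and 37 wider regions, and 15 narrow sites on 1 phase. The wider region again ended a median of 6.22 kb before the site. On the other 21 chromosomes no step within 100 kb held more than 8 pairs. The median fold enrichment of the chromosome 13 sites on the step was 5.57 in siORCA 1 and 5.11 in siORCA 2, and 4.28 in control 1 and 4.43 in control 2, each below the median over all narrow sites of that sample. The short arms of human chromosomes 13 and 21 are known to carry tandem arrays, among them those of the ribosomal RNA genes, but no annotation was used here and the content of these stretches was not tested. Reads from a tandem array can map to several copies, so the sites of a stretch may not be independent. The 2 stretches hold 66 narrow sites, or 0.881%, and without them 51.7% of narrow sites and 70.6% of wider regions had a neighbour within 10 kb.

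The comparison of siORCA with control asked whether the origins found in all samples changed when ORCA was targeted. Peaks at the narrow sites were longer in the siORCA lists: the sample medians averaged 175.5 ± 3.54 bp in siORCA and 158.5 ± 6.36 bp in control (SD, n = 2 each). The difference of 17 bp was larger than the spread within either group and the groups did not overlap, with p = 0.333 in an exact two-sided permutation test, the smallest that 2 against 2 allows. It was 10 to 18 bp with any 1 library left out, and 12 bp without siORCA 2, which leaves 1 siORCA sample and other members. Peaks in wider regions were longer in siORCA too, with 439 ± 15.6 bp in siORCA and 387 ± 28.3 bp in control (exact permutation p = 0.333). The narrow median over the wider median was 0.400 ± 0.00612 in siORCA and 0.410 ± 0.0135 in control, which overlapped (exact permutation p = 0.667). Peak length can move with depth, which is unknown, and its part in the 17 bp was not tested.

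Region by region, log2 peak length was set relative to the sample's median over all regions found in the 4 lists and tested with limma over all 57116. None was called longer in siORCA, a background of 0%, and none shorter, also 0%, at an adjusted p of 0.05, and the lowest adjusted p was 0.854. At an unadjusted p under 0.05, 51 narrow sites (0.681%) were longer in siORCA, against a background of 2.86%, and 167 (2.23%) were shorter, against a background of 2.95%. Without the centring these were 155 longer and 57 shorter, and with quantile normalisation 79 and 104, so the split turns with the scaling. The median log2 difference was -0.08 over the narrow sites (quartiles -0.33 and 0.16) and -0.04 over all regions. Without the centring these medians were 0.12 and 0.16. On centred lengths, both siORCA samples were above both control samples at 1006 narrow sites (13.4%), against a background of 15.7% of all regions. Both were below at 1788 narrow sites (23.9%), against a background of 19.9%. Lengths at narrow sites are capped by the width limit, and the centring subtracts the larger siORCA medians of all regions, so a shift of narrow sites towards shorter is in part built in. On lengths in bp, a count added after seeing the data, both siORCA samples were above at 1975 narrow sites (26.4%), against a background of 24.7%. Both were below at 832 (11.1%), against a background of 11.4%. Neither scale thus sets the narrow sites apart in a fixed direction.

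The sites with the smallest p each way show how far single lengths moved, although none passed the adjusted threshold in limma. At chr22:43378695-43378991 the peaks were 261 and 265 bp long in siORCA and 108 and 93 bp in control, a centred log2 difference of 1.19 ± 0.32 (SE). At chr14:2513583-2513829 they were 247 and 229 bp long in siORCA and 106 and 98 bp in control. At chr19:32006923-32007216 they were 208 and 275 bp long in siORCA and 111 and 92 bp in control. At all 3 the siORCA peaks filled most of the site and the control peaks were near the shortest that the caller reported.

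The opposite was seen at the 3 sites with the smallest p for a shorter peak in siORCA. At chr1:70322690-70322973 the peaks were 83 and 103 bp long in siORCA and 191 and 195 bp in control, a centred log2 difference of -1.26 ± 0.25 (SE). At chr17:82383942-82384171 they were 89 and 103 bp long in siORCA and 176 and 205 bp in control. At chr1:37181872-37182159 they were 105 and 106 bp long in siORCA and 245 and 288 bp in control. The 6 sites were picked by their p-values, so their sizes are at the extreme of 7493, and each had an adjusted p of 0.854 in limma.

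The surroundings of the narrow sites were then compared between the groups. Another peak of the same sample lay within 5 kb of 78.2% of narrow sites in siORCA 1 and 66.3% in siORCA 2, against 62.8% in control 1 and 69.1% in control 2. The means were 72.3 ± 8.41% in siORCA and 65.9 ± 4.49% in control (SD, n = 2 each), the groups overlapped, and an exact two-sided permutation test gave p = 0.667. The share followed the number of peaks in the list, highest in siORCA 1 and lowest in control 1. Without siORCA 1, the difference of siORCA minus control was -0.0831 percentage points. With all lists shortened to the same covered length it was 0.221 points (exact permutation p = 0.667). In the stricter list it was 19.1 points (exact permutation p = 0.333), so its size moved with the list used. In wider regions the share was higher in every sample, at 89.9% in siORCA 1 and 81.7% in siORCA 2, and 78.5% in control 1 and 83.1% in control 2.

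Regions with a peak in both lists of 1 group and in neither of the other were counted around the narrow sites. Within 10 kb of a narrow site there were 2904 siORCA-only and 638 control-only regions, a ratio of 4.55 (95% interval 4.18 to 4.97, counting error only). Around wider regions the numbers were 13183 and 3188, a ratio of 4.14 (3.98 to 4.30), and over all chromosomes 29106 and 8954, a ratio of 3.25 (3.17 to 3.33). A siORCA-only region lay within 10 kb of 32.8% of narrow sites and a control-only region within 10 kb of 8.50%, against 39.9% and 11.0% of wider regions. The interval at narrow sites overlaps that at wider regions. The ratio rests on list length and on single libraries: with all lists shortened to the same covered length it was 2.13 at narrow sites, 1.92 at wider regions and 1.62 overall. Leaving out 1 library gave 0.791 without control 1, 1.28 without control 2, 4.27 without siORCA 1 and 9.33 without siORCA 2, so the direction does not hold without control 1. With 1 control left out, control-only needs a peak in 1 list and siORCA-only still needs both, which lowers the ratio by construction. The same ratio was 0.833 at wider regions and 0.506 overall without control 1, and 1.33 and 0.877 without control 2. With 1 siORCA sample left out, siORCA-only needs a peak in 1 list, which favours siORCA-only by construction. The ratio was then 4.02 at wider regions and 4.02 overall without siORCA 1, and 8.64 and 10.3 without siORCA 2. Without siORCA 2 the ratio at narrow sites was thus below the ratio over all chromosomes.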

How the data were processed

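The 4 nascent-strand samples (2 siORCA, 2 control) each have their own deposited list of broad peaks. BWA, SAMtools and MACS2 with the T2T-CHM13 build are named in the submitters' processing notes, without versions, and their settings are not known here. Each deposited peak has a score, a fold enrichment (a linear ratio), and a −log10 p-value and −log10 q-value, all the authors' own values. Fold enrichment was used only within its own list. The lists give no read counts, so depth is unknown.

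Peaks were pooled and merged as described, and distances were measured between region edges. Lengths were tested with limma 3.58.1 in R 4.3.3 (lmFit, eBayes with trend, Benjamini-Hochberg adjustment over all regions found in the 4 lists, threshold 0.05). On simulated data the fit was checked to return the median log2 change that had been put in. How often it calls a changed region with 2 against 2 samples is not given here, so an absence of calls does not show an absence of change. Merging and distances were computed in Python 3.11.15 with numpy 2.4.6, pandas 2.3.3 and scipy 1.17.1, and plots were drawn with matplotlib 3.10.9. Single values were compared with exact permutation tests, whose smallest p is 0.33 with 2 against 2 samples. Shares have Wilson 95% intervals that cover counting error only.

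The narrow sites and all comparisons were chosen with earlier results of these data known. Sites were named by rule: the 5 with the highest mean percentile of fold enrichment, the 3 narrowest, the 3 farthest from other regions found in all 4 lists, the 3 each way with the smallest p in limma, the 5 windows with most sites, the longest runs, and the chromosomes at either end. Alternatives were a −log10 q of at least 3, merging over gaps of 100 bp, lists shortened to equal covered length, each replicate left out, limits of 250 and 400 bp, other distances, other scalings and the replicate block. Same-numbered samples were not shown to be paired. The planned GC content and annotation steps were not run, since no genome sequence of this build was used here.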

Additional observations from a re-analysis of the deposited data

How the results depend on the processing

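Of the alternative values computed, 144 were labelled the same, 20 moved and 2 turned direction. The same means the same direction for most differences and a similar size for counts. For the 10 kb share and the ratio it means a value within counting error of the main one. Many of the 144 are limma counts that stayed at 0 or repeats for the named single sites, so the tally is no measure of robustness. The number of narrow sites was 3483 in the stricter list, 4404 with a limit of 250 bp and 13447 with a limit of 400 bp, and 11761 to 17110 with a replicate left out, since fewer lists then had to agree. The share with another shared region within 10 kb was lower for narrow sites than for wider regions (difference -18.5 percentage points), and the difference was -19.9 with lists of equal length, -13.1 within 2 kb, -11.2 within 50 kb and -17.3 to -16.6 with a replicate left out. The ratio of siORCA-only to control-only regions near narrow sites was 16.3 in the stricter list, 2.13 with lists of equal length, 4.04 within 50 kb and 0.791 to 9.33 with a replicate left out. In the stricter list the same ratio was 17.3 at wider regions and 13.4 over all chromosomes, so the high value was not particular to narrow sites. Within 50 kb it was 3.74 at wider regions. The difference in the share with a peak of the same sample within 5 kb was 19.1 percentage points in the stricter list and 0.221 with lists of equal length. It was -0.0831 to 12.3 with a replicate left out, turning direction without siORCA 1. The percentile difference between narrow sites and wider regions was -0.178 to 3.10 with a replicate left out, turning direction without control 1, and was above 0 in 4 of 4 lists with equal lengths. The difference in median peak length was 10 to 18 bp with a replicate left out. With the replicate block, that difference was 17 bp, the difference in the share within 5 kb was 6.33 percentage points, and limma called 0 regions (lowest adjusted p 0.911). The deviations of same-numbered samples correlated at -0.0455 over all regions found in the 4 lists, over 2 pairs. The causes of these moves were not tested. Dropping the evenly spaced stretches, an alternative chosen after seeing the data, left 7427 sites and a ratio of 4.55. The planned GC content, in windows of 300 bp or 1 kb, was not run. Depth is unknown, so no limit from it can be given.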
